A study of Mus musculus with 18 samples.

Results

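Laminins, nidogens and integrins were followed across the sorted cell types of the newborn mouse inner ear. Members were the genes whose probe symbol reads Lama, Lamb, Lamc, Itga or Itgb followed directly by a digit, together with Nid1 and Nid2. This name rule matched 34 of 19057 genes that carry a symbol on the array, and 26 of these were measured, among 12002 measured genes in all. A gene counted as measured when a probe for it was detected, with a detection p-value under 0.01 against the negative controls of the array, on at least 2 of the 18 arrays. The 26 comprise 4 laminin alpha, 2 laminin beta and 1 laminin gamma chain, both nidogens, 9 integrin alpha and 6 integrin beta subunits, and 2 proteins named for binding integrins (Itgb1bp1 and Itgb3bp). The 8 members not measured were Itga5, Itga7, Itgb2, Itgb3, Itgb7, Itgb1bp2, Lamb3 and Lamc3, and each was detected on at most 1 array. The name rule does not reach integrin alpha subunits named by a letter, of which Itgav is given with the neighbouring genes.

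Inner ears came from Atoh1/nGFP mice on a C57BL/6 background at postnatal day 1, in which hair cells carry a nuclear green fluorescent protein (GFP). Hair cells (HCs) were sorted by GFP together with CD326, a surface protein of epithelia, cells with CD326 alone were epithelial non-hair cells (ENHCs, which the labels call ENSCs), and cells with neither were non-epithelial cells (NECs). Cochlear and vestibular tissue were sorted separately, so that 3 cell types by organ made 6 groups with 3 arrays each, and each array carried RNA from the pooled ears of several mice. The mice are untreated and all carry the reporter, so every comparison is between cell types or organs, and the NECs are a mixture defined only by the absence of both labels.

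Laminins are trimers of 1 alpha, 1 beta and 1 gamma chain that polymerise into the sheet of the basement membrane, and nidogens link that sheet to the type IV collagen network. Integrins are pairs of an alpha and a beta subunit that span the plasma membrane and hold the cytoskeleton to such matrix. In the inner ear the sensory epithelium rests on a basement membrane that supporting cells contact and hair cells do not, with mesenchyme, vessels and nerve on its other side.

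Between 16668 and 19564 probes were detected per array, and the lowest detected probe of an array lay between 5.10 and 5.52 on the normalized log2 scale, so values near or under this floor are background. The closest array to each of the 18 belonged to its own group. All 8 hair cell markers were higher in HCs than in ENHCs and all 8 epithelial markers higher in ENHCs than in NECs. Of the endothelial markers, 0 of 8 were detected on any cochlear HC, cochlear ENHC or vestibular HC array, and 6 of 8 on none of the vestibular ENHC arrays. Summed signals of 10 mesenchymal markers were 10200 to 11000 in cochlear and 14100 to 15400 in vestibular NECs, against 2360 to 2710 and 1230 to 1790 in the ENHCs of these organs and 1090 to 1210 and 689 to 767 in their HCs. In such sorted bulk samples, fewer cells of a type and less RNA per cell cannot be told apart. Before sorting, the tissue was dissociated with thermolysin and Accutase, enzymes that loosen extracellular matrix, and the effect of this step on these transcripts was not tested.

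Of the 26 members, 23 differed among the 6 groups by the moderated F test of limma, against 62.3% of all genes tested. The 3 that did not pass were Nid1, Itgb1bp1 and Itgb3bp, with adjusted p-values of 0.12, 0.173 and 0.957. Levels sorted into a few shapes. Lama5, Itga3 and Itgb4 had their highest values in ENHCs of both organs, and Itgb6 in cochlear ENHCs only. The nidogen Nid2 and Lama2, Lama4, Itga1, Itga2 and Itga11 had theirs in NECs. Lamb1, Lamb2, Lamc1, Itgb1, Itgb5 and Itga9 were high in both ENHCs and NECs and lowest in HCs.

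**Figure D1:**
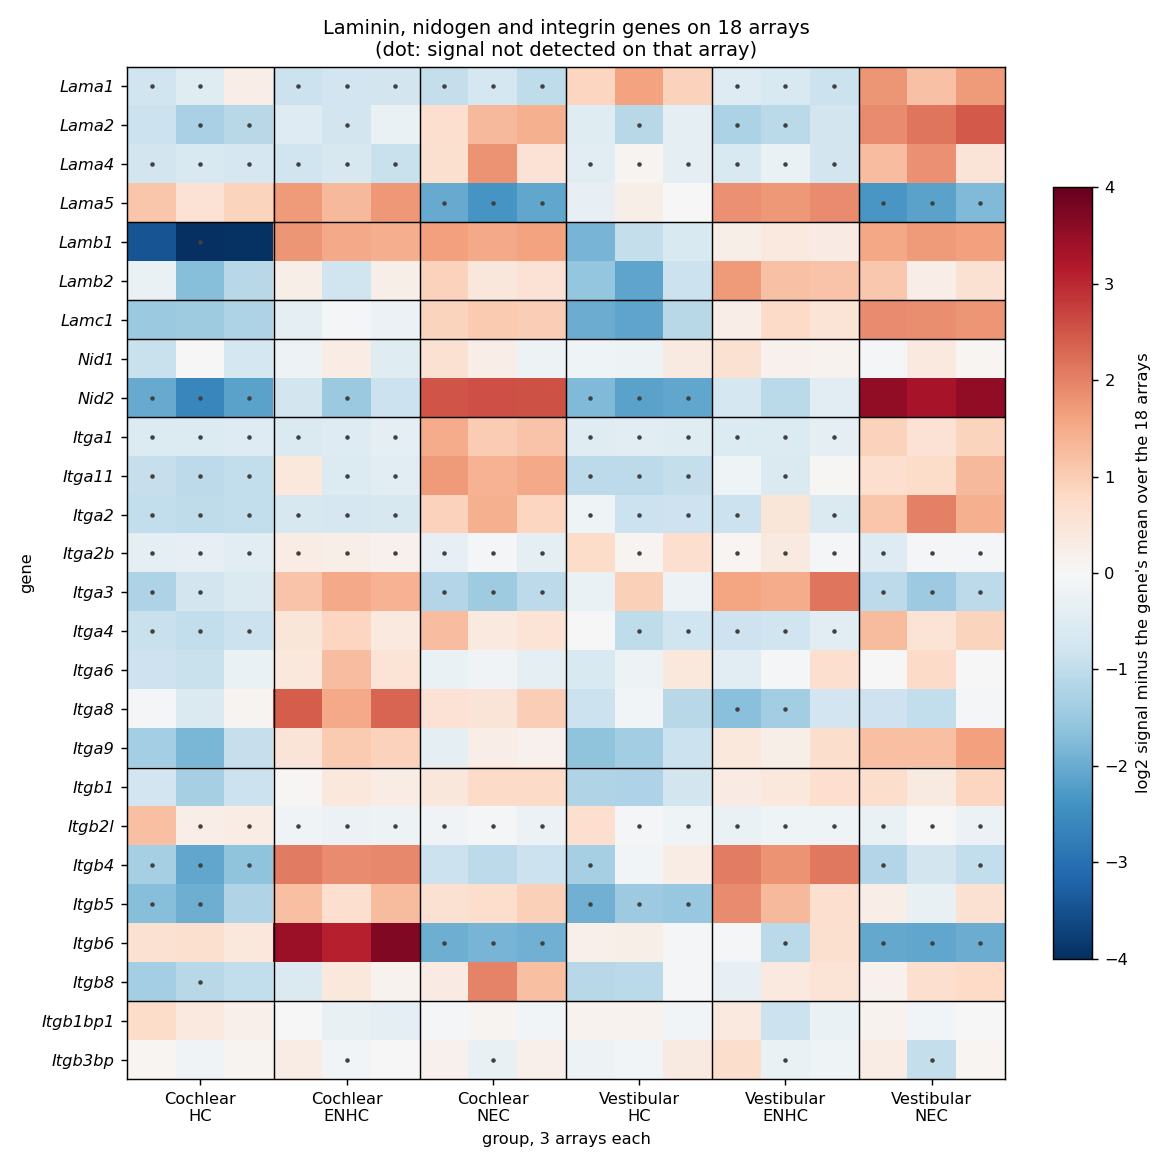
Each cell shows the log2 signal of 1 gene on 1 of the 18 arrays minus that gene's mean over the 18 arrays, with arrays in columns by group and dots on arrays where the signal was not detected, and colours saturate at the ends of the scale. Lamb1 is lowest on the 3 cochlear HC arrays, Nid2 is high on the 6 NEC arrays, and Itgb6 and Itga8 are highest on the 3 cochlear ENHC arrays.

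Lamb1, with the largest difference of HCs from ENHCs, Lama5, with a high level in both epithelial cell types, and Itgb6 and Itga8, with the largest differences between organs in ENHCs, are shown with the 250 bases before their first listed transcription start, because members that moved together could be compared there for short motifs. RefSeq promoters on GRCm38.p6 were matched for 23 of the 34 members. Capitals mark any match, on either strand, to 6 short motifs of general promoters and of factors active in epithelia or ciliated cells. These were the TATA box with the letters TATAAA and the GC box of SP factors with the letters GGGCGG. The CCAAT box was searched by the letters of its name. The AP-1 motif of JUN and FOS proteins was searched as TGANTCA and the motif of TEAD proteins as GGAATG. Of the X-box element of RFX proteins only a part was searched, with the letters GTTGCC.
Lamb1, chr12:31265043-31265292, plus strand: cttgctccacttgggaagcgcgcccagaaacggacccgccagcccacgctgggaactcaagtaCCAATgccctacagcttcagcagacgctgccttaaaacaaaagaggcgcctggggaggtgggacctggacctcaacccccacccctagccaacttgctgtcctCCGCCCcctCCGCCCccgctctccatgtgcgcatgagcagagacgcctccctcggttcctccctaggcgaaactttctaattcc
Lama5, chr2:180225860-180226109, minus strand: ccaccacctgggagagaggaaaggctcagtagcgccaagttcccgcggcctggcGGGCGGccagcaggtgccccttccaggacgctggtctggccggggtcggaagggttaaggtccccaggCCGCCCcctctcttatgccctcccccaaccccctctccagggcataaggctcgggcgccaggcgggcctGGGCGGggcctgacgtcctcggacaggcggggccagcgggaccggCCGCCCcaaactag
Itgb6, chr2:60722604-60722853, minus strand: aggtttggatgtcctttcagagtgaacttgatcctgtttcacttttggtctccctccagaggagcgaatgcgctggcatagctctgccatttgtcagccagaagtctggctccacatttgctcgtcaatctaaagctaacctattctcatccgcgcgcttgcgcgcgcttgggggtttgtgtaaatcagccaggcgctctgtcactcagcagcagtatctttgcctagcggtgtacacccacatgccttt
Itga8, chr2:12301945-12302194, minus strand: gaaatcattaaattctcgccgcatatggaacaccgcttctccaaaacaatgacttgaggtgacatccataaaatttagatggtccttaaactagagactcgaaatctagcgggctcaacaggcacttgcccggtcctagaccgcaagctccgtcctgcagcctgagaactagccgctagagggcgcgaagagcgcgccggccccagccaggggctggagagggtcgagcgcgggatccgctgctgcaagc
The Lamb1 window held 2 GC boxes and 1 CCAAT box and the Lama5 window 4 GC boxes. The windows of Itgb6 and Itga8, which shared a high level in cochlear ENHCs, held no match to any of the 6 motifs. Over the 26 promoters of the matched members, counting each start, a GC box occurred in 34.6%, against 32.7% of 32851 promoters of the same length. A CCAAT box occurred in 15.4% against 33.8%, a TEAD site in 11.5% against 12.6% and the X-box part in 7.69% against 10.4%. A TATA box and an AP-1 site occurred in none, against 12.4% and 6.75%. A match is only a run of letters, and a window without one says nothing about the factor.

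The comparison of ENHCs with NECs sets the epithelium against the tissue beneath it. Over both organs 6 members were higher and 11 lower in ENHCs, 65.4% of the members against 32.2% of all genes (15.9% higher, 16.2% lower), and the median log2 difference was -0.16 over the members and 0.01 over all genes. The epithelial side held the laminin chain Lama5 and the integrin subunits Itga3, Itgb4 and Itgb6. The NEC side held 6 of the 9 laminin chains and nidogens, among them Nid2, Lama2 and Lamc1, and the collagen-binding integrin subunits Itga1, Itga2 and Itga11.

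Lama5 encodes the alpha chain of the laminins found under many mature epithelia. It read 8.52, 8.10 and 8.55 in cochlear ENHCs and 8.64, 8.55 and 8.68 in vestibular ENHCs. No NEC array detected it, with values of 4.80, 4.44 and 4.72 in the cochlea and 4.47, 4.66 and 5.03 in the vestibular system. All ENHC arrays lay above all NEC arrays, and ENHCs were at least 9.12-fold higher (log2 3.82 ± 0.15 SE, adjusted p = 2.12e-13). Where no array of one side detected a gene, as here, the fold is a lower bound taken against the detection floor of each array, and the fitted log2 difference depends on the offset added before the logarithm. Where only some arrays of the lower side detected a gene, its fold rests in part on background and depends on the offset in the same way.

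Itgb6 encodes the subunit that pairs with the product of Itgav in epithelia and activates latent TGF-beta. Cochlear ENHCs read 9.78, 9.44 and 10.05, vestibular ENHCs 6.31, 5.27 and 6.97, of which the second was not detected, and the NEC arrays lay between 4.28 and 4.47 with no detection. ENHCs were thus at least 6.27-fold higher over both organs (log2 3.60 ± 0.20, adjusted p = 4.56e-11). The size differed by organ, at least 21.6-fold in the cochlea and at least 1.82-fold in the vestibular system. Of the other kept probes for Itgb6, both gave the difference in the cochlea (3.51 and 1.95 on the log2 scale) and neither gave it in the vestibular system (0.27, adjusted p = 0.6, and 0.21, adjusted p = 0.635, adjusted over probes).

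Itgb4 encodes the laminin-binding subunit of hemidesmosomes. It read 8.51, 8.30 and 8.34 in cochlear and 8.48, 8.22 and 8.52 in vestibular ENHCs, against 5.57, 5.38 and 5.56 in cochlear and 5.25, 5.68 and 5.43 in vestibular NECs, of which the last group was detected on 1 array only. The groups did not overlap, and ENHCs were 7.55-fold higher (log2 2.92 ± 0.21, adjusted p = 1.72e-09). Itga3, whose product with that of Itgb1 is a laminin receptor of epithelia, read 7.20, 7.57 and 7.43 in cochlear and 7.64, 7.55 and 8.18 in vestibular ENHCs and was detected on no NEC array, where it lay between 4.61 and 5.02. ENHCs were at least 4.84-fold higher (log2 2.74 ± 0.20, adjusted p = 2.03e-09). Itga6, the partner of Itgb4 in hemidesmosomes, was detected on all 18 arrays and was not called over both organs, and in the cochlea it was higher in ENHCs (log2 0.99 ± 0.32, adjusted p = 0.0285), a call lost without cochlear ENHC replicate 2 (log2 0.75) and without each of the 3 cochlear NEC arrays (log2 0.93 to 1.05).

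Itgb5, a vitronectin receptor subunit, was slightly higher in ENHCs over both organs (log2 0.69 ± 0.21, adjusted p = 0.0145), with arrays of both sides overlapping. Itga2b, the platelet integrin alpha subunit, was called higher (adjusted p = 0.0349) although no ENHC or NEC array detected it, so no fold is given.

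On the NEC side, Nid2 had the largest difference. It read 9.52, 9.57 and 9.53 in cochlear and 10.54, 10.28 and 10.53 in vestibular NECs. ENHCs lay between 5.51 and 6.57, with 5 of 6 arrays detected, and were 14.7-fold lower (log2 -3.88 ± 0.16, adjusted p = 4.17e-13). Nid1, the other nidogen, depends on its probe. The probe with the highest mean log2 signal, which stands for the gene here, lay between 8.12 and 8.56 as the mean of each ENHC and NEC group and was not called. The other kept probe, which has the higher mean on the linear deposited scale, had means of 9.81 and 10.36 in cochlear and vestibular NECs and of 5.06 and 6.33 in the ENHCs, a difference of -4.39 on the log2 scale (adjusted p = 1.47e-12 over probes). This second probe therefore has the shape of Nid2. It was also called lower in HCs than in NECs (log2 -5.10, adjusted p = 6.51e-14) and than in ENHCs (-0.71, adjusted p = 0.00531). In ENHCs it was lower in the cochlea than in the vestibular system (-1.26, adjusted p = 0.00405, all over probes). The probe that stands for the gene was called in none of these comparisons. Which probe reports Nid1 was not tested.

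Lama2, the alpha chain of muscle and nerve basement membranes, read 6.74, 7.37 and 7.49 in cochlear and 7.96, 8.22 and 8.51 in vestibular NECs, against 5.54, 5.34 and 5.80 and then 4.79, 4.98 and 5.34 in the ENHCs of these organs, where 3 of 6 arrays detected it. ENHCs were 5.34-fold lower (log2 -2.42 ± 0.18, adjusted p = 1.56e-09). Lama4, an alpha chain of vessel walls, read 5.85, 7.00 and 5.78 in cochlear and 6.43, 7.04 and 5.74 in vestibular NECs and was detected on no HC or ENHC array. ENHCs were at least 1.84-fold lower (log2 -1.75 ± 0.22, adjusted p = 3.06e-06). Lamc1, the gamma chain shared by most laminins, was present in every group and graded between them. Cochlear NECs read 9.03, 9.19 and 9.10 and cochlear ENHCs 7.73, 8.05 and 7.89, while vestibular NECs read 10.02, 10.00 and 9.90 and vestibular ENHCs 8.40, 8.90 and 8.68. ENHCs were 2.41-fold lower over both organs (log2 -1.27 ± 0.16, adjusted p = 2.9e-06), without overlap of arrays.

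The subunits Itga1, Itga2 and Itga11 all pair with the product of Itgb1 to bind collagens, and all were highest in NECs. Itga1 read 6.37, 5.90 and 6.02 in cochlear and 5.80, 5.46 and 5.78 in vestibular NECs and was detected on none of the other 12 arrays (at least 1.38-fold lower in ENHCs, adjusted p = 5.14e-09). Itga2 read 6.26, 6.74 and 6.18 and then 6.42, 7.34 and 6.76, and among the other 12 arrays was detected only on vestibular ENHC replicate 2, at 5.81 (lower in ENHCs, log2 -1.78 ± 0.21, adjusted p = 1.64e-06). Itga11 read 7.19, 6.90 and 7.01 and then 6.17, 6.22 and 6.81, against 5.92, 4.95 and 5.03 in cochlear and 5.32, 4.93 and 5.53 in vestibular ENHCs, 3 of these detected (2.71-fold lower, log2 -1.44 ± 0.17, adjusted p = 1.52e-06). None of these arrays of NECs overlapped the ENHC arrays. Itga1, like Lama4, passed the detection filter only through NEC arrays, and Itga2 would not have passed without them. That these genes are high in NECs is thus no independent result.

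The remaining calls on the NEC side were Lama1, Itga4, Itgb8 and Lamb1, all at a log2 difference of -1.05 or nearer 0, and the arrays of both sides overlapped for each. The Itgb8 call was lost without any 1 of 6 arrays (log2 -0.56 to -0.75). These were cochlear ENHC replicate 1, cochlear NEC replicates 2 and 3, vestibular ENHC replicate 1 and vestibular NEC replicates 2 and 3. Another kept Itgb8 probe was not called (log2 -0.32, adjusted p = 0.329), and the remaining probe was (-0.63, adjusted p = 0.0407). The other kept Itga4 probe was not called (-0.49, adjusted p = 0.0696, all over probes). Within the cochlea 7 members were higher and 8 lower in ENHCs, against 23.5% of all genes, and within the vestibular system 5 were higher and 11 lower, against 23.6%. Beside these differences, 8 of 10 mesenchymal and all 8 endothelial markers were lower in ENHCs, and their part in the NEC-high members was not tested.

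**Figure D2:**
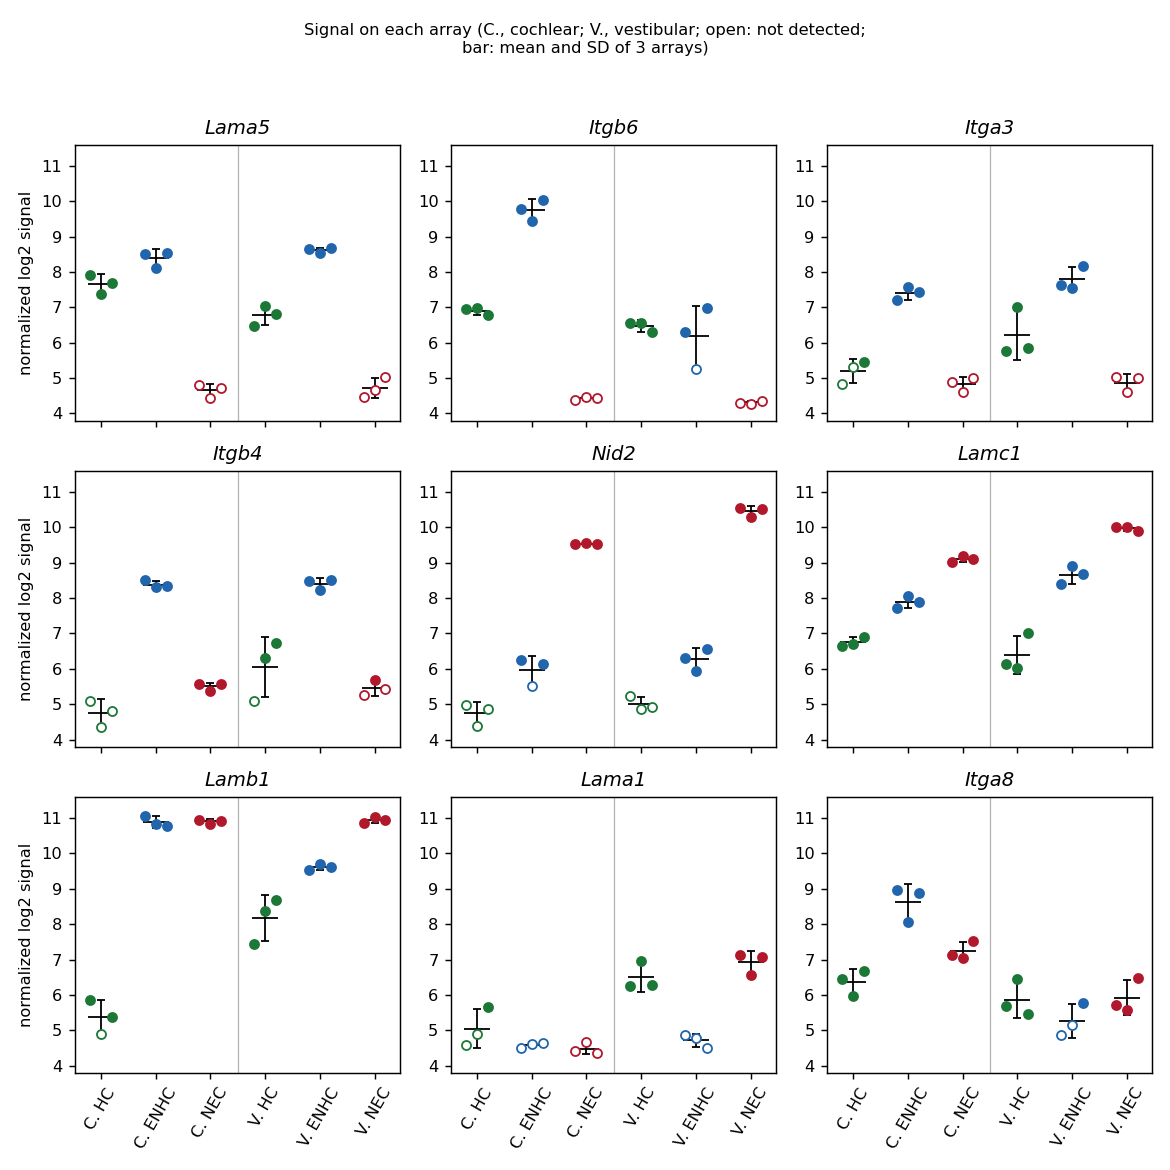
Points are the normalized log2 signals of single arrays in the 6 groups, open where not detected, and bars are the mean and SD of 3 arrays. Lama5, Itga3 and Itgb4 are highest in both ENHC groups, Nid2 and Lamc1 in both NEC groups, Itgb6 and Itga8 in cochlear ENHCs, and Lama1 is detected on all arrays of vestibular HCs and NECs only.

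The comparison of HCs with ENHCs sets the sensory cells against the epithelium around them. Here 3 members were higher and 16 lower in HCs, 73.1% of the members against 47.0% of all genes (22.1% higher, 24.9% lower), with a median log2 difference of -0.81 over the members and -0.03 over all genes. Of the 15 integrin subunits 11 were lower and 1 higher, and of the 9 laminin chains and nidogens 5 were lower and 1 higher. The chains Lamb1, Lamb2, Lamc1 and Lama5 and the receptor subunits Itgb4, Itgb5, Itga9, Itga3 and Itgb1 were all lower in HCs.

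Lamb1, a beta chain present in most embryonic laminins, had the largest difference, and its size depended on the organ. Cochlear HCs read 5.85, 4.88 and 5.37, of which the second was not detected, against 11.07, 10.82 and 10.77 in cochlear ENHCs. Vestibular HCs read 7.44, 8.37 and 8.69 against 9.54, 9.69 and 9.63 in vestibular ENHCs. HCs lay below ENHCs on every array in both organs, by 46-fold in the cochlea (log2 -5.52 ± 0.27, adjusted p = 9.43e-12) and 2.74-fold in the vestibular system (log2 -1.46 ± 0.27, adjusted p = 0.000263). The organs differed in this by -4.07 ± 0.38 on the log2 scale (adjusted p = 9.9e-07).

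Lamc1 and Lamb2 followed the same direction. Lamc1 read 6.65, 6.71 and 6.91 in cochlear and 6.14, 6.01 and 7.02 in vestibular HCs, below every ENHC array, and was 3.25-fold lower (log2 -1.70 ± 0.16, adjusted p = 4.57e-08). Lamb2, a beta chain of mature basement membranes and of the neuromuscular synapse, read 7.84, 6.42 and 6.99 in cochlear HCs and 8.36, 7.30 and 8.33 in cochlear ENHCs, which overlap. In the vestibular system HCs at 6.57, 6.01 and 7.24 lay below ENHCs at 9.82, 9.28 and 9.26, and over both organs HCs were 3.69-fold lower (log2 -1.88 ± 0.26, adjusted p = 7.29e-06). Lama5 stayed detected on all 6 HC arrays, at 7.92, 7.38 and 7.70 in the cochlea and 6.48, 7.04 and 6.80 in the vestibular system, and was 2.44-fold lower than in ENHCs (log2 -1.29 ± 0.15, adjusted p = 7.45e-07). Nid2 was detected on no HC array (at least 1.8-fold lower than in ENHCs, adjusted p = 2.7e-06).

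Among integrin subunits, Itgb4 fell furthest. Cochlear HCs read 5.10, 4.35 and 4.82 with no detection and vestibular HCs 5.09, 6.30 and 6.73 with the last 2 arrays detected, all below the ENHC arrays given above. HCs were 7.99-fold lower (log2 -3.00 ± 0.21, adjusted p = 1.02e-09). Itga3 read 4.83, 5.31 and 5.46 in cochlear HCs, detected on the last array only, and 5.78, 7.02 and 5.84 in vestibular HCs, and was 3.71-fold lower (log2 -1.89 ± 0.20, adjusted p = 2.81e-07). For Itgb5 the HC arrays read 4.99, 4.73 and 5.48 in the cochlea and 4.77, 5.23 and 5.17 in the vestibular system, with 1 detection, against 7.91, 7.36 and 7.96 and then 8.57, 7.98 and 7.37 in ENHCs and 7.31, 7.40 and 7.64 and then 6.96, 6.39 and 7.29 in NECs. HCs were the low group for Itgb5 and lay near background, so only the vestibular system, with no HC detection, gives a bound, at least 6.47-fold below ENHCs. The fitted log2 differences over both organs were -2.80 ± 0.21 from ENHCs (adjusted p = 2e-09) and -2.11 ± 0.21 from NECs (adjusted p = 5.87e-08).

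Itgb1, the beta subunit shared by most matrix-binding integrins, was detected on every array. It read 8.24, 7.69 and 8.15 in cochlear and 7.81, 7.78 and 8.29 in vestibular HCs. ENHCs lay between 9.07 and 9.69 and NECs between 9.38 and 9.86, and HCs were 2.61-fold below ENHCs (log2 -1.39 ± 0.15, adjusted p = 2.72e-07) and 3.17-fold below NECs (log2 -1.67 ± 0.15, adjusted p = 1.29e-08). Its partner Itga9, a receptor for tenascin-C among others, read 7.57, 7.10 and 8.00 in cochlear and 7.31, 7.53 and 8.06 in vestibular HCs. ENHCs read 9.46, 9.97 and 9.85 and then 9.35, 9.17 and 9.62, and HCs were 3.93-fold lower (log2 -1.98 ± 0.18, adjusted p = 4.33e-08), with no overlap.

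Itgb8, whose product pairs with that of Itgav, read 5.19, 5.44 and 5.57 in cochlear and 5.44, 5.47 and 6.47 in vestibular HCs, 5 of these detected. In ENHCs it read 5.97, 6.99 and 6.70 and then 6.23, 6.95 and 7.12, and in NECs 6.89, 8.53 and 7.76 and then 6.74, 7.23 and 7.35. HCs overlapped ENHCs and were 2.09-fold lower (log2 -1.06 ± 0.27, adjusted p = 0.00278), and they lay below every NEC array (log2 -1.82 ± 0.27, adjusted p = 9.77e-06). Itgb6 read 6.94, 6.99 and 6.78 in cochlear and 6.56, 6.57 and 6.29 in vestibular HCs. The cochlear HC arrays lay below the cochlear ENHC arrays (log2 -2.85 ± 0.29, adjusted p = 2.36e-07), and the vestibular HC arrays lay within the range of the vestibular ENHC arrays (log2 0.29 ± 0.29, adjusted p = 0.486). The subunits Itga4, Itga6, Itga8 and Itga11 were called lower in HCs by less than 1 on the log2 scale over both organs. For Itga8, Itga4 and Itga6 the call held in the cochlea only (log2 -2.27, -1.49 and -1.39). In the vestibular system they were not called (0.60, 0.08 and -0.17). Itga11 was lower in both organs (-0.79 and -0.77). Over both organs the other kept probes of Itga4 and Itga11 were not called (-0.17 and -0.10, adjusted p = 0.526 and 0.622 over probes).

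Of the 3 members higher in HCs, Lama1, the alpha chain of the earliest embryonic laminins, was the largest. It was detected on all 3 vestibular HC arrays, at 6.24, 6.97 and 6.29, on 1 cochlear HC array, at 5.65 beside 4.58 and 4.89, and on no ENHC array. HCs were at least 1.27-fold higher over both organs (log2 1.12 ± 0.18, adjusted p = 4.39e-05) and at least 2.19-fold higher in the vestibular system. Itgb2l was detected on 2 HC arrays and no others, so it passed the detection filter only through HCs and its call is no independent result. Itgb1bp1, whose product binds the tail of the Itgb1 subunit and restrains its activation, gave 0.47 ± 0.17 (adjusted p = 0.0314), and its other kept probe, at a lower mean, was called the opposite way (log2 -1.37, adjusted p = 5e-06 over probes), so its direction is unsettled.

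Within the cochlea 2 members were higher and 16 lower in HCs than in ENHCs, against 36.0% of all genes (16.7% higher, 19.3% lower), and within the vestibular system 1 was higher and 11 lower, against 34.5% (16.8% higher, 17.7% lower). Of all genes called in the vestibular system 48.8% were higher in HCs, and 60.5% with median scaling, which moved the median of all genes from -0.03 to 0.13, while the members stayed at 1 higher and 11 lower. Beside these differences all 8 epithelial markers were lower in HCs than in ENHCs (median log2 -1.62). Of 10 mesenchymal markers 6 were lower and 1 higher, of 6 Schwann cell and glial markers 4 were lower and 2 higher, and of 5 cartilage and bone markers 3 were lower and 0 higher. The part of these lists in the lower laminin and integrin signals was not tested.

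Against NECs, HCs had 4 members higher and 14 lower, 69.2% of the members against 57.3% of all genes (28.2% higher, 29.1% lower), with medians of -1.52 over the members and 0.00 over all genes. Nid2 was at least 26.5-fold lower in HCs (adjusted p = 3.61e-15), Lamb1 17.9-fold lower (log2 -4.16 ± 0.19, adjusted p = 7.64e-13) and Lamc1 7.81-fold lower (log2 -2.97 ± 0.16, adjusted p = 8.88e-12). Lamb1 in NECs read 10.96, 10.83 and 10.93 in the cochlea and 10.85, 11.03 and 10.94 in the vestibular system. Lamb2 in NECs read 9.04, 8.55 and 8.68 and then 9.20, 8.38 and 8.72. Lama5 was at least 3.73-fold higher in HCs (log2 2.53 ± 0.15, adjusted p = 3.35e-11) and Itgb6 at least 2.58-fold (log2 2.32 ± 0.20, adjusted p = 1.21e-08), although the kept probe of Itgb6 with the lowest mean gave 0.15 (adjusted p = 0.432 over probes). In HCs, Lama5 was thus above NECs on every array while Lamb1 and Lamc1 were below NECs on every array. Beside these differences all 10 mesenchymal markers (median log2 -3.47), all 8 endothelial markers (-3.03) and 5 of 6 pericyte and smooth muscle markers (-2.06) were lower in HCs than in NECs, and their part in the lower Nid2, Lamb1 and Lamc1 was not tested. The comparisons of cell types share arrays, so their calls are not independent of each other.

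**Figure D3:**
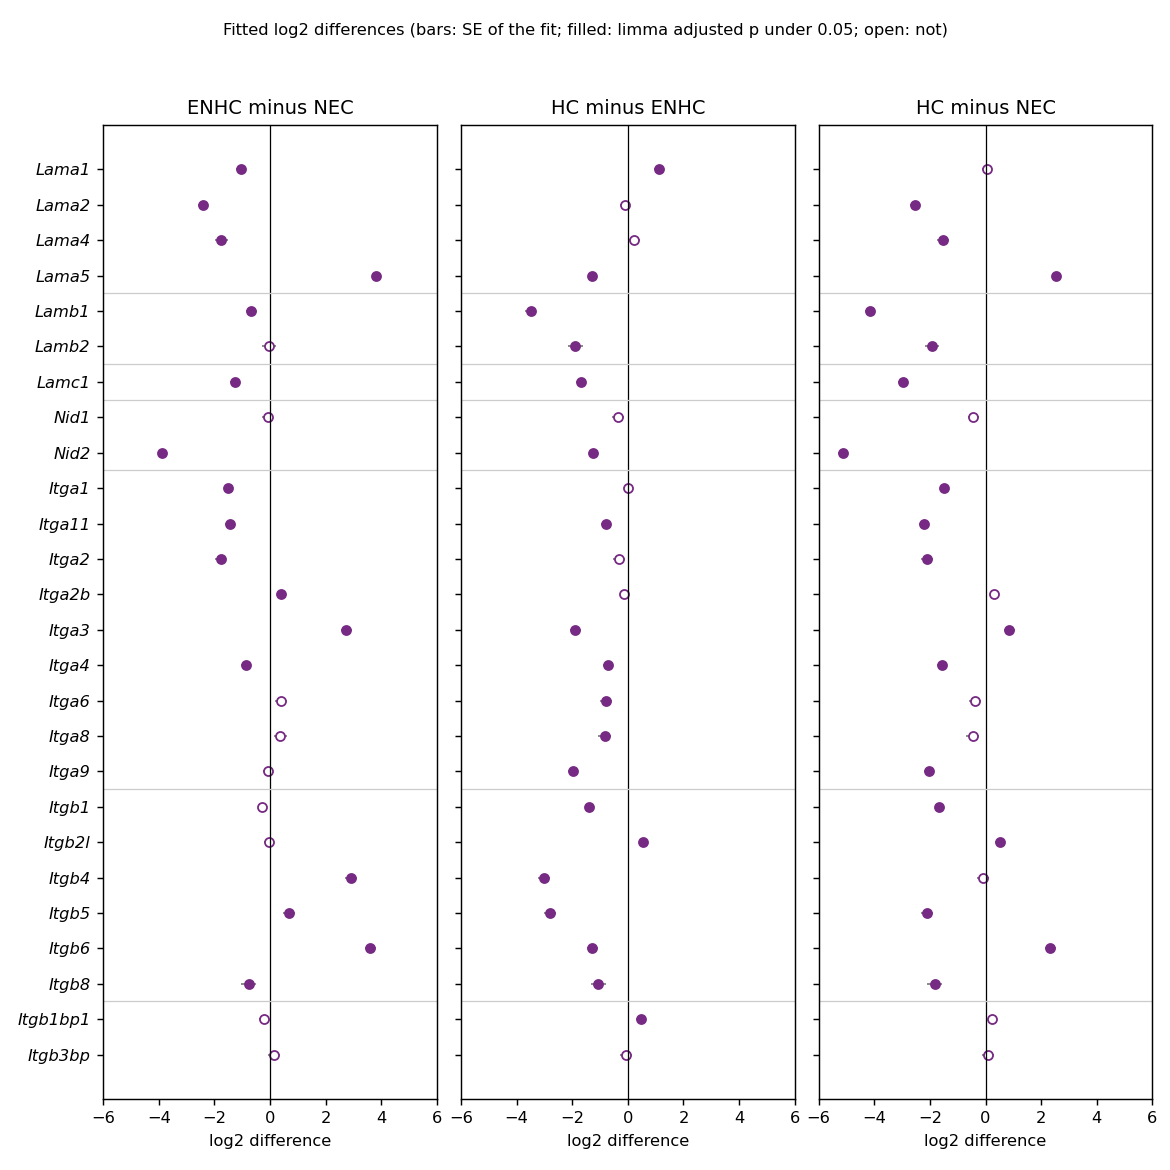
Points are log2 differences over both organs for the 26 measured members in the 3 comparisons of cell types, with bars for the SE of the fit and filled points for an adjusted p under 0.05. Lama5, Itgb6, Itgb4 and Itga3 lie furthest to the right for ENHCs against NECs, and Lamb1, Itgb4 and Itgb5 furthest to the left for HCs against ENHCs.

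The comparison of organs asks where the same sorted cell type differs between cochlea and vestibular system. In ENHCs 4 members were higher and 2 lower in the cochlea, 23.1% of the members against 10.8% of all genes (5.30% higher, 5.50% lower), with a median log2 difference of -0.04 over the members and 0.03 over all genes. Cochlear ENHCs stood out by the integrin subunits Itgb6 and Itga8, and vestibular ENHCs by Lamb2.

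For Itgb6 the 3 cochlear ENHC arrays lay above all other 15 arrays, and they were 11.9-fold above vestibular ENHCs (log2 3.57 ± 0.29, adjusted p = 7.42e-08). All 3 kept probes gave this difference, at 3.57, 3.20 and 1.82. Itga8, whose product with that of Itgb1 binds nephronectin and is needed in mice for the hair bundles of the utricle, read 8.98, 8.05 and 8.87 in cochlear ENHCs. In vestibular ENHCs it read 4.86, 5.14 and 5.78 with the last detected, a difference of 10.4-fold (log2 3.37 ± 0.33, adjusted p = 6.97e-07). Elsewhere it read 6.46, 5.97 and 6.67 in cochlear HCs, 7.12, 7.05 and 7.53 in cochlear NECs, 5.69, 6.45 and 5.45 in vestibular HCs and 5.72, 5.56 and 6.48 in vestibular NECs. Cochlear ENHCs were thus above all other arrays for the brighter Itga8 probe. A second, dimmer Itga8 probe, detected on 9 arrays, had means of 6.19 and 5.59 in cochlear and vestibular ENHCs and did not give the difference (log2 0.60, adjusted p = 0.268 over probes).

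Itga4, a receptor subunit for fibronectin and VCAM-1, read 5.85, 6.24 and 5.76 in cochlear ENHCs and was detected on none of the vestibular ENHC arrays, at 4.54, 4.58 and 4.95 (at least 1.5-fold, adjusted p = 0.00343). It read 6.60, 5.76 and 5.91 in cochlear and 6.64, 5.93 and 6.27 in vestibular NECs, 4.48, 4.39 and 4.51 without detection in cochlear HCs, and 5.36, 4.36 and 4.58 with 1 detection in vestibular HCs. Its second probe did not give the ENHC difference (log2 0.24, adjusted p = 0.723 over probes). Lamb1 was 2.41-fold higher in cochlear ENHCs (log2 1.27 ± 0.27, adjusted p = 0.003), with no overlap of arrays. Lamb2 was 2.75-fold lower there (log2 -1.46 ± 0.37, adjusted p = 0.0126) and Lamc1 1.7-fold lower (log2 -0.77 ± 0.22, adjusted p = 0.0319), and with median scaling in place of quantile normalization neither was called, at adjusted p = 0.134 and 0.171. The Lamb2 call was also lost without cochlear ENHC replicate 2 (log2 -1.11) and without vestibular ENHC replicate 1 (log2 -1.28), and the Lamc1 call without any 1 of cochlear ENHC replicates 1 and 3 and vestibular ENHC replicates 2 and 3 (log2 -0.65 to -0.77). The other kept Lamc1 probe, also detected on all 18 arrays, did not give the ENHC difference (log2 -0.13, adjusted p = 0.838 over probes). Of 8 epithelial markers 0 were higher and 4 lower in cochlear ENHCs (median log2 -0.54). Of the mesenchymal markers 2 were higher and 3 lower, and of 7 supporting and prosensory markers 2 were higher and 0 lower, and their part in these differences was not tested.

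In HCs 1 member was higher and 5 lower in the cochlea, against 14.1% of all genes (6.12% higher, 7.94% lower), with medians of -0.17 and 0.01. Lamb1 was 6.96-fold lower in cochlear HCs (log2 -2.80 ± 0.27, adjusted p = 4.8e-07), with every cochlear array below every vestibular one. Lama1 was 2.75-fold lower (log2 -1.46 ± 0.26, adjusted p = 0.000508), Itga3 2.01-fold (log2 -1.01 ± 0.29, adjusted p = 0.0216) and Itgb4 at least 1.72-fold (adjusted p = 0.00584), the last with overlapping arrays. The other kept Itgb4 probe was not called (log2 -0.84, adjusted p = 0.0605 over probes). Itga2b read 4.54, 4.59 and 4.48 without detection in cochlear HCs and 5.67, 5.04 and 5.61 with 2 detections in vestibular HCs (at least 1.13-fold lower, adjusted p = 0.00384). In NECs it lay between 4.42 and 4.89 and in ENHCs between 4.85 and 5.30 with no detection. Itga2b thus passed the detection filter only through vestibular HC arrays, the group in which it is high, so its call is no independent result. Lama5 was 1.86-fold higher in cochlear HCs (log2 0.89 ± 0.21, adjusted p = 0.00612), also without overlap, and with median scaling its adjusted p was 0.0564. The Itga3 call was lost without cochlear HC replicate 1 (log2 -0.81) and without vestibular HC replicate 2 (log2 -0.60). When only the 6 HC arrays entered the fit, 2 members were called in place of 6. Beside these values, 4 of 8 epithelial markers, among them Cldn3 at a log2 difference of -1.51 and Krt8 at -1.51, were lower and 1 was higher in cochlear HCs. Of 7 supporting and prosensory markers 2 were lower there, among them Otoa at -2.70, and 1 was higher. The part of these markers in the lower Lamb1, Itgb4 and Itga3 of cochlear HCs was not tested.

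In NECs 1 member was higher and 5 lower in the cochlea, against 6.12% of all genes (2.82% higher, 3.30% lower), with medians of -0.03 and 0.03. Lama1 was detected on the 3 vestibular NEC arrays, at 7.13, 6.55 and 7.08, and on none of the cochlear ones, at 4.42, 4.66 and 4.37, and was at least 3.03-fold lower in the cochlea (log2 -2.44 ± 0.26, adjusted p = 4.96e-06). Itga9 read 8.57, 9.20 and 9.11 in cochlear and 10.14, 10.14 and 10.58 in vestibular NECs (2.51-fold lower, log2 -1.33 ± 0.26, adjusted p = 0.00307). Both kept their call under every alternative run. Itga8 was 2.49-fold higher in the cochlea (log2 1.32 ± 0.33, adjusted p = 0.0183), while Lama2, Nid2 and Lamc1 were 2.04-fold, 1.88-fold and 1.83-fold lower (adjusted p = 0.0147, 0.0174 and 0.0236). With median scaling these 4 were not called (adjusted p = 0.0506, 0.0647, 0.19 and 0.131), leaving 2 members in place of 6. Single NEC arrays also decided these 4 calls. Itga8 was lost without cochlear replicate 3 (log2 1.17), vestibular replicate 1 (1.22) or vestibular replicate 2 (1.14), and Lama2 without cochlear replicate 1 (-0.79) or vestibular replicate 3 (-0.89). Nid2 was lost without any NEC array other than vestibular replicate 2 (-0.87 to -0.93), and Lamc1 without any of the 6 (-0.83 to -0.91). The other kept probes of Itga8 and Lamc1 did not give the NEC difference (log2 0.76 and -0.24, adjusted p = 0.186 and 0.713 over probes). Marker signals moved with organ too. In cochlear NECs 5 of 7 neuronal markers were higher and 5 of 8 endothelial markers lower (1 higher). The part of these markers in the differences was not tested.

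**Figure D4:**
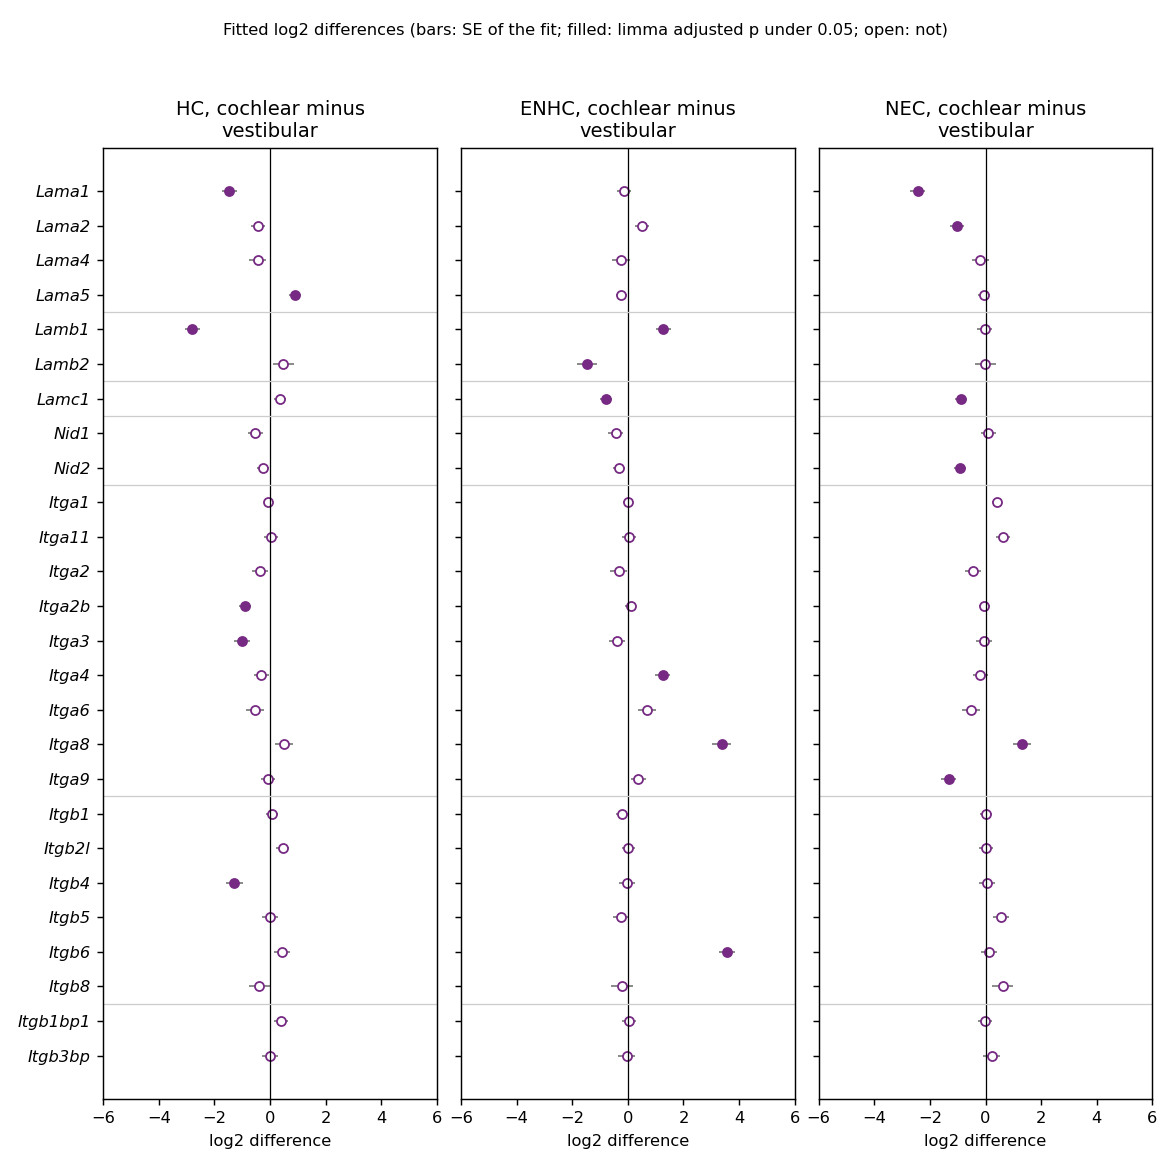
Points are cochlear minus vestibular log2 differences for the 26 measured members in HCs, ENHCs and NECs, with bars for the SE of the fit and filled points for an adjusted p under 0.05. Lamb1 lies left of 0 for HCs (-2.80) and right of 0 for ENHCs (1.27), and Itgb6 and Itga8 lie furthest to the right for ENHCs (3.57 and 3.37).

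Tested directly, the difference of ENHCs from NECs varied with organ for 7 members, all more positive in the cochlea, against 7.74% of all genes (3.74% in that direction). These were Itgb6 (3.46 ± 0.41 on the log2 scale, adjusted p = 1.5e-05), Lama1, Itga8, Itga9, Lama2, Itga4 and Lamb1. For Itga8 and Itga4 the direction turned with the other kept probe, to -0.16 (adjusted p = 0.962) and -0.15 (adjusted p = 0.966). Itga9 turned direction within this set, since in ENHCs it was higher than in NECs in the cochlea (log2 0.80 ± 0.26, adjusted p = 0.0317) and lower in the vestibular system (log2 -0.91 ± 0.26, adjusted p = 0.0145), with the interaction at 1.70 ± 0.37 (adjusted p = 0.00522). Its other kept probe was called in the cochlea (1.16, adjusted p = 0.00693) and for the interaction (1.56, adjusted p = 0.0275). In the vestibular system that probe was not called (-0.40, adjusted p = 0.438, all over probes), so the vestibular call rests on 1 of 2 kept probes. The difference of HCs from ENHCs varied with organ for 9 members, against 10.6% of all genes (4.47% more positive, 6.14% more negative). It was more negative in the cochlea for 6 (Lamb1, Itgb6, Itga8, Itga4, Lama1 and Itga2b) and more positive for 3 (Lamb2, Lama5 and Lamc1), and with median scaling for 7 and 0. The smallest of these were not stable, since the Lamb1 interaction for ENHCs against NECs (1.30 ± 0.38, adjusted p = 0.0399) was lost without any 1 of the 12 arrays compared and without cochlear HC replicate 3 (1.20 to 1.36), while those of Lamb1 and Itgb6 for HCs against ENHCs were lost under none of the alternatives run. For HCs against ENHCs, the other kept probes of Itga8, Itga4 and Lamc1 gave interactions of -0.63, -0.32 and 0.45. These were not called (adjusted p = 0.462, 0.756 and 0.477 over probes). Itga2b entered only through its detections in vestibular HCs.

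Genes that work beside laminins and integrins were followed on lists given here by counts. Over all genes 15.9% were higher and 16.2% lower in ENHCs than in NECs, and 22.1% were higher and 24.9% lower in HCs than in ENHCs, 32.2% and 47.0% in either direction, and each list is to be read against these shares. Of 22 basement membrane genes and laminin partners measured, 7 were higher and 8 lower in ENHCs than in NECs, and 0 were higher and 16 lower in HCs than in ENHCs. Their median log2 differences were -0.20 and -1.43, beside 0.01 and -0.03 over all genes. Lower in HCs than in ENHCs were Hspg2 (perlecan, log2 -4.08 ± 0.28, adjusted p = 5.51e-10) and the type IV collagen chains Col4a5 (log2 -3.45 ± 0.26, adjusted p = 2.2e-09) and Col4a1 (log2 -3.06 ± 0.18, adjusted p = 5.57e-11). Higher in ENHCs than in NECs were Smoc1, Sdc4 (a syndecan) and Npnt, the nephronectin ligand of the integrin that holds the Itga8 subunit (log2 1.61 ± 0.15, adjusted p = 6.74e-08).

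Of 21 other integrin ligands, 4 were higher and 10 lower in ENHCs than in NECs, and 2 were higher and 12 lower in HCs than in ENHCs, with medians of -0.45 and -0.86. Tnc, tenascin-C, was 8.34-fold higher in HCs than in ENHCs (log2 3.06 ± 0.21, adjusted p = 4.92e-10), where its receptor subunit Itga9 was lower, while Fn1, fibronectin, was 11.7-fold lower (log2 -3.55 ± 0.18, adjusted p = 7.09e-12). Vcam1, a ligand of the receptor that holds the Itga4 subunit, was at least 14.5-fold lower in ENHCs than in NECs (adjusted p = 1.49e-13). The alpha subunit Itgav was 2.15-fold lower in ENHCs (log2 -1.10 ± 0.16, adjusted p = 1.91e-05) and 2.73-fold lower in HCs than in NECs.

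Of 33 adaptors and kinases of integrin adhesions, 5 were higher and 12 lower in ENHCs than in NECs (32.2% of all genes were called), and 1 was higher and 19 lower in HCs than in ENHCs (47.0% of all genes), with medians of -0.06 and -0.77. Tns3, a tensin that binds integrin tails, was 18.6-fold lower in HCs than in ENHCs (log2 -4.22 ± 0.16, adjusted p = 1.08e-13) and Fermt2, the integrin activator kindlin, 3.82-fold lower (log2 -1.93 ± 0.18, adjusted p = 5.72e-08). Of 5 hemidesmosome genes, 2 were higher and 1 lower in ENHCs than in NECs, and 1 was higher and 3 lower in HCs than in ENHCs, with medians of 0.41 and -0.68. Among them Cd151, a tetraspanin that joins laminin-binding integrins, was lower in HCs than in ENHCs (log2 -1.38 ± 0.18, adjusted p = 3.92e-06) and Dst, dystonin, was higher (log2 1.88 ± 0.17, adjusted p = 3.46e-08). Of 13 genes of the dystroglycan complex, the other main laminin receptor, 3 were higher and 5 lower in ENHCs than in NECs and 1 was higher and 6 lower in HCs than in ENHCs, near the 47.0% of all genes called there, with medians of -0.21 and -0.31. The higher one in HCs was Dtna, dystrobrevin alpha (log2 1.87 ± 0.19, adjusted p = 1.03e-07), which was also higher in ENHCs than in NECs (log2 2.47 ± 0.19, adjusted p = 2.68e-09). Large2, a glycosyltransferase that builds the laminin-binding sugar of dystroglycan, was detected on no NEC array and was at least 4.17-fold higher in ENHCs (adjusted p = 7.68e-11).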

How the data were processed

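RNA of each sorted pool was pre-amplified (NuGEN) and hybridised by the authors to Illumina mouse whole-genome BeadChips, and their Bead-Studio output, version not given in the sources used here, holds 1 signal intensity and 1 detection p-value per probe and array. These deposited intensities were not normalized, and a further deposited table holds quantile-normalized intensities, which differ from quantile-normalized signals by at most 0.29%. The 3 arrays per group limit the precision. Replicates are separate arrays, and each p-value tests a difference of group means against a spread within groups that all 6 groups share.

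Signals were background-corrected by normexp, in which detection p-values supplied the background, with an offset of 16, quantile-normalized and set to log2 with limma 3.58.1 in R 4.3.3. The detection filter (p-value under 0.01, at least 2 arrays) retained 24352 of 45281 probes. Of the 45281, 34885 carried 1 gene symbol in the platform annotation, 18 several and 10378 none. Where several probes of a gene passed, the brightest by mean log2 signal stood for it, which for Nid1 is not the probe with the highest mean deposited signal.

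One limma fit of 6 group means over 18 arrays gave every comparison and the F test, moderated over all kept probes, with Benjamini-Hochberg adjustment over 12002 genes and calls at an adjusted p-value under 0.05. Values over probes were adjusted over all kept probes. Alternatives were other background corrections, scalings, offsets, detection filters and probe rules, array weights, a replicate block, the compared arrays only, a 2-way analysis of variance, and each array left out. Single-array values are given for members called over both organs by at least 1 on the log2 scale or called between organs. Genes of other lists were named from at most 3 called per direction, list and comparison. Members, lists and tests were chosen with earlier results of these data known.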

Additional observations from a re-analysis of the deposited data

Results flagged for a closer look

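The difference between ENHCs and NECs was more positive in the cochlea than in the vestibular system by a test of the difference itself for 7 members. On the log2 scale the organs differed by 3.46 for Itgb6 (adjusted p = 1.5e-05), 2.31 for Lama1 (0.000313), 2.06 for Itga8 (0.0072), 1.70 for Itga9 (0.00522), 1.55 for Lama2 (0.00762), 1.45 for Itga4 (0.0216) and 1.30 for Lamb1 (0.0399), all from limma. The values of Itga8 and Itga4 turned direction with their other probe (-0.16 and -0.15). Of the 4 groups entering each value, 3 had no detection for Lama1, 2 for Itgb6 and 1 for Itga4.

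The difference between HCs and ENHCs depended on organ, by the same kind of test, for 9 members. It was more negative in the cochlea by -4.07 for Lamb1 (adjusted p = 9.9e-07), -3.14 for Itgb6 (3.2e-05), -2.87 for Itga8 (0.000307), -1.57 for Itga4 (0.00973), -1.33 for Lama1 (0.0221) and -1.01 for Itga2b (0.0261). It was more positive by 1.94 for Lamb2 (0.02), 1.13 for Lamc1 (0.0257) and 1.12 for Lama5 (0.0178), and with median scaling these 3 were not called (adjusted p = 0.128, 0.0913 and 0.249). With their other kept probes Itga8, Itga4 and Lamc1 were not called (-0.63, -0.32 and 0.45, adjusted p = 0.462, 0.756 and 0.477 over probes). Of the 4 groups entering each value, 3 had no detection for Itga2b and 2 each for Itga4 and Lama1. Itga2b passed the detection filter only through vestibular HC arrays.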

How the results depend on the processing

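Of 149 gene calls among the members, 103 kept direction and call under every alternative run, 45 lost the call in at least 1 and 4 reversed in at least 1. Of 163 uncalled values, 29 were called in at least 1. Between organs, the 6 calls in HCs became 2 with only the compared arrays, and the 6 in NECs became 2 with median scaling and 3 with an offset of 1, and ranged from 3 to 6 with single arrays left out. The cause was not tested. With the lowest-mean probe, Itgb1bp1 reversed to -1.37 for HCs against ENHCs over both organs, -1.48 in the cochlea and -1.25 in the vestibular system, to -1.52 for HCs against NECs and to -0.99 between organs in HCs. With the mean of its probes it reversed to -0.45, -0.42 in the cochlea and -0.64 against NECs. Nid1 for ENHCs against NECs in the vestibular system reversed to -4.03 with its other probe, also when chosen by mean deposited signal, an alternative added after seeing the data, and to -1.93 with the mean of probes. The organ interactions of ENHCs against NECs reversed to -0.15 for Itga4 and -0.16 for Itga8 with the lowest-mean probe. Genes near the detection floor have differences that depend on the offset.

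The labels tie the replicate numbers to no shared source, so the numbers were not taken as pairing and the main fit holds no term for them. Same-numbered arrays nonetheless tended to deviate together, with r above 0.1 in 39 of 45 pairs (median r 0.27, against -0.14 for other numbers). Of 18 arrays 17 matched best with their own number, and replicate 1 had the highest raw median in all 6 groups. What same-numbered arrays share was not tested. With the replicate block 0 of 149 calls were lost and 8 uncalled values were called, giving 17 members for ENHCs against NECs, 19 for HCs against ENHCs and 18 for HCs against NECs over both organs.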

Other observations

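Among other matrix genes, the organs differed within a cell type. Tnc was 4.94-fold higher in cochlear than in vestibular NECs (log2 2.30, adjusted p = 3.93e-05 by limma). Cd44, a hyaluronan receptor, was 4.76-fold higher in cochlear than in vestibular ENHCs (log2 2.25, adjusted p = 9.23e-06) and was also higher in cochlear HCs (log2 1.74). Col3a1 and Thbs1 were lower in cochlear ENHCs (log2 -3.17 and -2.29).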
